A study of Mus musculus with 35 samples.

Results

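The 5 members examined were the adult globin genes Hba-a1, Hba-a2, Hbb-bs and Hbb-bt and the erythroid gene Alas2, taken by name from 24411 gene rows. Gene-level counts were available for pachytene spermatocytes (Spc) and round spermatids (RS), with 3 libraries per genotype and cell type, and for isolated chromatoid bodies (CB), the large cytoplasmic RNA granules of round spermatids, with 3 libraries of one genotype and 4 of the other. Small RNA was counted in 5 spermatocyte and 3 round spermatid libraries of each genotype. The conditional knockout (cKO) males carried loxP sites around exon 9 of Smg6, which encodes an endonuclease of nonsense-mediated decay, together with a Cre transgene driven by the Ngn3 promoter, which acts in early spermatogonia. Control (CTRL) males were littermates without the Cre transgene, so they carried the loxP sites on one or both copies of Smg6 but kept the gene intact. All animals were adult and of a mixed C57Bl/6J and SV129 strain, and only germ cells were meant to lose the gene, so blood and the somatic testis cells of a cKO male kept it. The deposited design gives 1 mouse as the source of each Spc or RS isolation, whereas the published methods name several testes, so a library may hold more than 1 mouse, and Spc and RS libraries may share mice. Each CB library pooled several mice. The cell fractions were made by sedimentation in a BSA gradient, which sorts cells by size and does not remove blood cells by a marker, and the CBs were captured with an antibody against DDX4.

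Hemoglobin carries oxygen in red blood cells and is built from paired alpha and beta chains, each holding a heme group. In the reference mouse genome the adult alpha chains come from the near-identical genes Hba-a1 and Hba-a2 and the adult beta chains from Hbb-bs and Hbb-bt. The animals were of a mixed strain, and which beta genes each of them carried was not tested. ALAS2 is the erythroid form of 5-aminolevulinate synthase, the first enzyme of heme synthesis, while other cells use ALAS1. Mouse red cells lose their nucleus before they enter the blood, and young red cells still hold globin mRNA together with the small RNAs miR-451a, miR-144 and miR-486. Germ cells are not known for making hemoglobin, so the globin genes were taken as a measure of erythroid RNA in a germ cell fraction. Alas2 was examined beside them, but its levels did not follow the globins over the 12 Spc and RS libraries (Pearson correlation of 0.07). It is therefore not read as such a measure here.

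The 5 members stood for only 4 distinct rows of counts. Hba-a1 (ENSMUSG00000069919, chr11:32283511-32284465, plus strand) and Hba-a2 (ENSMUSG00000069917, chr11:32296489-32297298, plus strand) held the same count in all 19 long RNA libraries. Hbb-bs (ENSMUSG00000052305, chr7:103826534-103828096, minus strand) equalled the row named Hbb-b1, and Hbb-bt (ENSMUSG00000073940, chr7:103812524-103813996, minus strand) equalled the row named Hbb-b2. Of 19061 genes with at least 50 counts over all libraries, 87 (0.456%) shared all their counts with another row. Alas2 (ENSMUSG00000025270, chrX:150547375-150570638, plus strand) had a row of its own. It lies inside the span of Apex2 on the other strand, and the deposited counts were made in a strand-aware mode. All positions are those of GRCm38, and all 5 genes are annotated as protein coding. Hba-a1 and Hba-a2 are treated as 1 measurement below, written Hba, although calls are counted over the 5 named members.

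The coding sequences show why reads of the copies are hard to tell apart. The 429 coding bases of Hba-a1 and Hba-a2 differed at 1 base (C381T, counted from 1 at the start codon, Hba-a1 first), and 306 of 355 stretches of 75 bases (86.2%), the read length of the Spc and RS libraries, occurred in both. The 444 coding bases of Hbb-bs and Hbb-bt also differed at 1 base (C417T, Hbb-bs first), with 342 of 370 such stretches shared (92.4%). The counts of Hbb-bs and Hbb-bt nevertheless differed, so the shared coding stretches alone do not tell which rows hold equal counts. No stretch of 75 bases was shared between Hba-a1 and Hbb-bs, so alpha and beta globin counts are separate measurements. Coding bases 336 to 426 of the alpha genes and 354 to 444 of the beta genes are shown with the differing base in capitals.
Hba-a1: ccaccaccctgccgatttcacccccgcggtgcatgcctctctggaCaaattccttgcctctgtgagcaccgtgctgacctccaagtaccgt
Hba-a2: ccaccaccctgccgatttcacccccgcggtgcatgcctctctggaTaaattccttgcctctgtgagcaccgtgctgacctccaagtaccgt
Hbb-bs: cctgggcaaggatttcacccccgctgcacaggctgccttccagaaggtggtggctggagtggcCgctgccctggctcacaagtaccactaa
Hbb-bt: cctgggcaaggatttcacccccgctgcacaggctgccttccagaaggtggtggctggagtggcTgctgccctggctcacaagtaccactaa

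Of 13 blood, endothelial and germ cell miRNAs listed for comparison, 8 had a mature sequence in the RefSeq table for GRCm38.p6. The red cell miRNAs among them lie in a single cluster on chromosome 11, with 119 bases between the end of miR-144-3p and the start of miR-451a. They are shown with the neutrophil and macrophage miRNA miR-223-3p, and the seed (bases 2 to 8) is in capitals. The 4 seeds differ from each other.
miR-451a: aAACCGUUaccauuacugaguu
miR-144-3p: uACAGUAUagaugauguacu
miR-144-5p: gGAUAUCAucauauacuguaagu
miR-223-3p: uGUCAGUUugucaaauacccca

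The erythroid factor GATA1 binds GATA words, and the one best known from erythroid genes is AGATAA. The words that differ from it in the last base (AGATAG) or in the first base (TGATAA) were searched as well, and so was the word that differs in both of these positions (TGATAG). The factor KLF1 and its relatives bind the word CACCC, which was also searched. Because the globin genes and Alas2 behaved differently in these fractions, the bases before their annotated first exons are shown from RefSeq (GRCm38.p6), with matches on either strand in capitals. Matches to the CCAAT box and to the word TATAA, as in the box near many start sites, are in capitals too. Matches to different words can overlap, and some lie outside the stretches shown. Within 250 bases before to 50 after the start, the GATA words occurred once each for Hba-a1, Hba-a2, Hbb-bs and Alas2 and 0 times for Hbb-bt. Of 32851 mouse promoters of that length, 29.8% held a GATA word and 57.5% the KLF1 word, while 37.4% held the CCAAT box and 24.9% the TATAA word, so a match says little by itself. Alas2 was the member with 0 matches to the CCAAT box. The promoters of Hba-a1 and Hba-a2 were equal at all 297 aligned bases.
Hba-a2 (chr11:32296242-32296488, plus strand): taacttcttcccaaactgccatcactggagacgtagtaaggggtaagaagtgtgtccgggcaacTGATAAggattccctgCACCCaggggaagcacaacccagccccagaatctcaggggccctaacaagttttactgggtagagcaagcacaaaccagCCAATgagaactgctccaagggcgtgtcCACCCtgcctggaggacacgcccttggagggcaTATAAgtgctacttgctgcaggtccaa
Hbb-bs (chr7:103828097-103828178, minus strand): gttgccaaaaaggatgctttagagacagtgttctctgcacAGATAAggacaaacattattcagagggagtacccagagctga
Alas2 (chrX:150547167-150547374, plus strand): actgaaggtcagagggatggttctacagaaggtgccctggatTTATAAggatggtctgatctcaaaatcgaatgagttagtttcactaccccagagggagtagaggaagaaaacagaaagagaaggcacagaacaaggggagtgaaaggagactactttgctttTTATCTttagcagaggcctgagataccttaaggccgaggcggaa

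Total counts ran from 38129415 to 49940226 in the 12 Spc and RS libraries, from 3965541 to 16699210 in the 7 CB libraries and from 120483 to 306864 miRNA counts in the 16 small RNA libraries. Levels are given as counts or as CPM, a share of the library's counts on edgeR's usual scale, with the library total corrected by TMM for differences in composition. Smg6 itself was at 177 ± 3.79 CPM in cKO Spc, 186 ± 6.56 CPM in cKO RS and 177 ± 22.4 CPM in cKO CB (SD, n = 3 each), and its log2 changes against CTRL were 0.23, 0.01 and -0.04 with adjusted p of 0.326, 0.979 and 0.886 (edgeR quasi-likelihood test). Only 1 exon is deleted, so the count of the whole gene does not check the labels. The fractions were checked against germ cell markers. In CTRL, 8 of 10 round spermatid genes and 10 of 10 late spermatid genes were higher in RS than in Spc, whereas in cKO none of these genes reached the call, with medians of 0.95 and 1.01 on the log2 scale.

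Globin mRNA was nearly absent from spermatocytes of both genotypes, present at a low and even level in control round spermatids and far more abundant, and uneven, in cKO round spermatids. Alas2 followed another course. It was high in control spermatocytes and low in cKO spermatocytes, while the globins were low in both. A change was called where the log2 fold change was at least 1.5 in size with an adjusted p of at most 0.05, the study's own thresholds. The Benjamini-Hochberg adjustment ran over all genes tested, or over all miRNAs tested in small RNA. Repeat elements entered only the library totals. In bulk fractions, fewer cells of a type and less RNA per cell cannot be told apart.

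**Figure D1:**
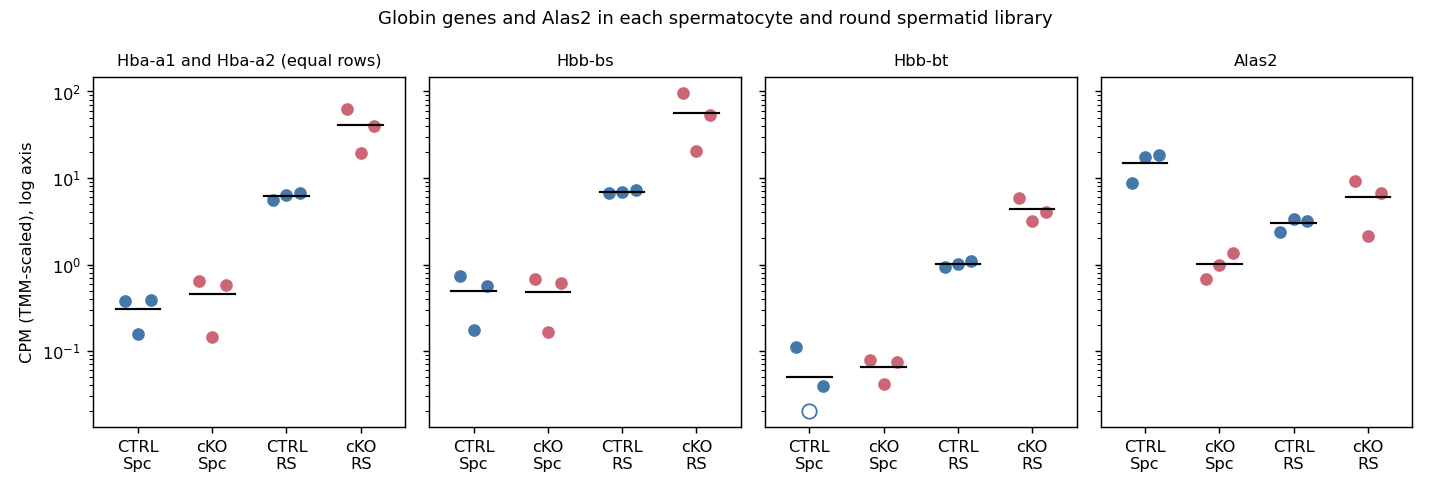
Each point is 1 library, the vertical axis is CPM on a log axis, the horizontal line is the mean of 3 libraries, and the open circle marks a count of 0 drawn at the foot of the axis. All 3 cKO RS libraries lie above all 3 CTRL RS libraries for the globin genes, while for Alas2 the group with the highest mean is CTRL Spc, which overlaps cKO RS.

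The alpha globin genes, which encode the alpha chain, had 17, 9 and 20 counts in CTRL Spc replicates 1 to 3 and 199, 206 and 212 counts in CTRL RS. In the cKO they had 25, 7 and 31 counts in Spc and 3137, 923 and 2151 counts in RS. The CTRL RS libraries were nearly equal, the cKO RS libraries spanned a 3.27-fold range in CPM, and no cKO RS library reached down to a CTRL RS library. Mean levels were 0.308 ± 0.129 CPM in CTRL Spc, 0.459 ± 0.273 in cKO Spc, 6.19 ± 0.5 in CTRL RS and 40.7 ± 21.8 in cKO RS (SD, n = 3).

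Hbb-bs, the more abundant of the beta chain genes, had 33, 10 and 29 counts in CTRL Spc, 26, 8 and 33 in cKO Spc, 238, 225 and 234 in CTRL RS and 4792, 988 and 2887 in cKO RS. Its cKO RS libraries were in the same order as those of the alpha genes, with replicate 1 highest and replicate 2 lowest. Mean levels were 0.49 ± 0.283, 0.487 ± 0.278, 6.98 ± 0.297 and 56.8 ± 37.8 CPM in the same order of groups. Hbb-bt, the other beta chain gene, was lower throughout, with 5, 0 and 2 counts in CTRL Spc, 3, 2 and 4 in cKO Spc, 33, 33 and 35 in CTRL RS and 295, 153 and 216 in cKO RS. The 0 in CTRL Spc replicate 2 allows a level of up to 0.0531 CPM (3 counts). In RS the Hbb-bt groups did not overlap either, at 1.01 ± 0.078 CPM in CTRL and 4.37 ± 1.39 CPM in cKO.

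Alas2 had 395, 991 and 946 counts in CTRL Spc and 26, 48 and 73 in cKO Spc, and these groups were far apart. In RS it had 84, 111 and 103 counts in CTRL and 467, 102 and 357 in cKO, where replicate 2 lay below the CTRL libraries on the CPM scale. Mean levels were 14.9 ± 5.34 CPM in CTRL Spc, 1.01 ± 0.348 in cKO Spc, 3 ± 0.544 in CTRL RS and 6.05 ± 3.66 in cKO RS. The order of the Alas2 levels was therefore CTRL Spc, cKO RS, CTRL RS and cKO Spc, and cKO RS, through its spread, overlapped both CTRL Spc and CTRL RS.

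Per kb of exon, the mean level of Hbb-bs in CTRL RS (8.97 ± 0.381 CPM per kb) was within an SD of that of Hba-a1 (8.85 ± 0.72) in the gene counts. That order rests on the copy and the table, since Hba-a2, with the same counts and a shorter length, was at 11.2 ± 0.908, and in the transcript counts, which leave out reads with several positions, Hbb-bs was at 10.3 ± 0.488 and Hba-a1 at 4.79 ± 0.38. In the gene counts, the levels of Alas2 (1.47 ± 0.266) and Hbb-bt (1.44 ± 0.113) were also within their SD of each other. In cKO RS the mean level of Hbb-bs was 73 ± 48.5 and that of Hba-a1 58.3 ± 31.2 CPM per kb, within their spread (Hba-a2 was at 73.5 ± 39.4, and the transcript counts gave 86.4 ± 58.5 for Hbb-bs and 28.6 ± 15 for Hba-a1), followed by Hbb-bt at 6.22 ± 1.98 and Alas2 at 2.97 ± 1.79. In CTRL Spc the order was turned, with Alas2 at 7.31 ± 2.62 CPM per kb above Hbb-bs at 0.63 ± 0.364, Hba-a1 at 0.44 ± 0.184 and Hbb-bt at 0.0708 ± 0.0797.

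The first comparison asked how the members differed between round spermatids and spermatocytes of control mice. All 4 globin members were higher in CTRL RS, against 17.0% of all features tested, and Alas2 was lower, against 17.0%. Hba was higher by 4.2 on the log2 scale (SE 0.33, adjusted p = 9.07e-05, 18.4-fold), Hbb-bs by 3.71 (SE 0.44, adjusted p = 0.000288, 13.1-fold) and Hbb-bt by 4.23 (SE 0.65, adjusted p = 0.000806, 18.8-fold). The size of the Hbb-bt change rested on few Spc counts and was 5.42 without CTRL Spc replicate 1 and 3.58 without replicate 2. Alas2 fell by 2.44 (SE 0.31, adjusted p = 0.00038). The median of all features was -0.08 and was -0.52 when libraries were scaled by their total alone, and the 5 directions were the same under that scaling.

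In cKO mice the same comparison gave larger globin differences and the opposite direction for Alas2. All 5 members were higher in cKO RS than in cKO Spc, against 3.39% of all features, and 0 were lower, against 3.64%. Hba was higher by 6.47 (SE 0.62, adjusted p = 0.000398, 88.9-fold), Hbb-bs by 6.87 (SE 0.72, adjusted p = 0.000515, 117-fold) and Hbb-bt by 6.02 (SE 0.42, adjusted p = 0.000221, 65.1-fold). Alas2, the heme enzyme, was higher by 2.55 (SE 0.54, adjusted p = 0.0077, 5.88-fold). Each of these tests used the edgeR quasi-likelihood fit of its own 6 libraries.

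The next comparison set cKO against CTRL within each cell type. In RS, 4 of 5 members were higher in the cKO, against 15.0% of all features, and 0 were lower, against 11.4%. Hba was higher by 2.73 (SE 0.38, adjusted p = 0.000285, 6.65-fold), Hbb-bs by 3.04 (SE 0.48, adjusted p = 0.000598, 8.22-fold) and Hbb-bt by 2.13 (SE 0.28, adjusted p = 0.000218, 4.37-fold). These calls held without any one library, with Hba between 2.34 and 3.11 and Hbb-bs between 2.5 and 3.48.

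Alas2 missed the threshold in RS, with a log2 difference of 1.03 (95% interval -0.04 to 2.09, adjusted p = 0.0748). It was 1.47 with an adjusted p of 0.000593 without cKO RS replicate 2, still below the fold threshold, 0.63 without cKO RS replicate 1, and 1.65 with an adjusted p of 0.0128, a call, when libraries were scaled by total counts alone. That scaling moved the median of all features from 0.12 to 0.72, so relative to the median the Alas2 difference hardly moved.

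In Spc the picture was the reverse. Alas2 fell by 3.94 in the cKO (SE 0.39, adjusted p = 0.00137, 15.3-fold), against 5.03% of all features lower, and it was the only 1 of 4 members tested to be called. Of the globins, Hba differed by 0.48 (95% interval -0.92 to 1.89, adjusted p = 0.575) and Hbb-bs by -0.1 (95% interval -1.62 to 1.42, adjusted p = 0.923), and Hbb-bt had too few counts to test. No member was higher, against 3.58% of all features. In the edgeR quasi-likelihood test 1 of 4 members, Alas2, had an unadjusted p under 0.05, as had 7375 of 17321 features. The wide Hbb-bs interval spans changes in both directions, and its sign was positive, at 0.31, without CTRL Spc replicate 1 or without cKO Spc replicate 2.

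**Figure D2:**
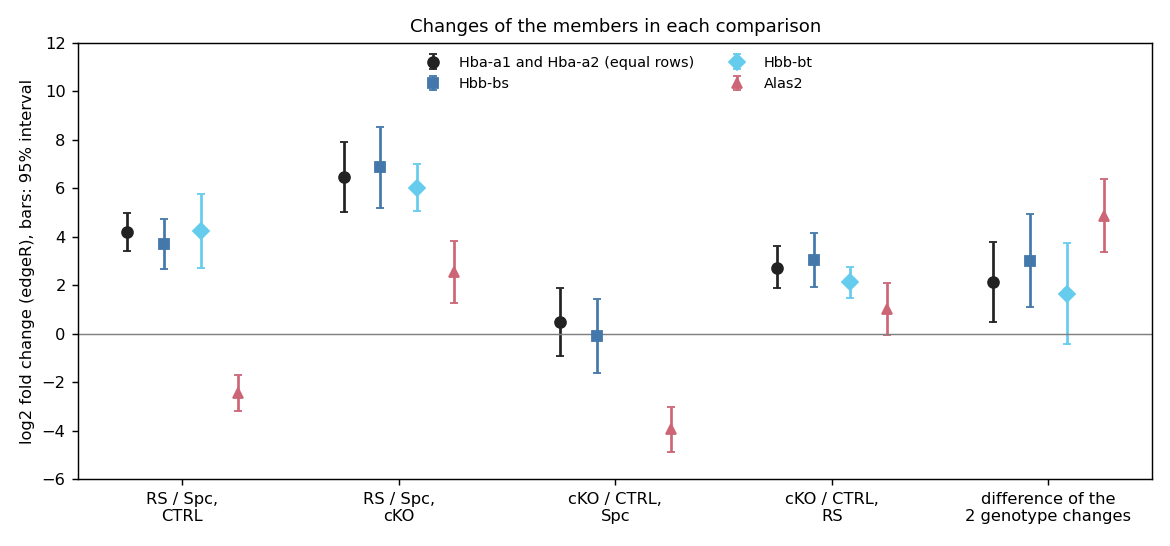
The vertical axis is the log2 fold change from edgeR with its 95% interval, and the last group is the difference of the genotype effects, RS minus Spc. The globin genes lie above 0 in both RS to Spc comparisons and in cKO against CTRL RS, while Alas2 lies at -2.44 in CTRL and 2.55 in cKO, and Hbb-bt is missing for Spc because it was not tested.

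Whether the genotype effect itself differed between the cell types was tested with an interaction term over all 12 libraries, calling an adjusted p of at most 0.05. It was called for 4 of 5 members, all with a more positive cKO to CTRL difference in RS than in Spc, against 19.0% of all features. Alas2 had the largest value, 4.87 (SE 0.69, adjusted p = 0.000621), followed by Hbb-bs at 3.02 (SE 0.88, adjusted p = 0.0178) and Hba at 2.14 (SE 0.76, adjusted p = 0.0394), and Hbb-bt was at 1.66 (95% interval -0.4 to 3.73, adjusted p = 0.171). The Hba call was fragile. Its adjusted p lay between 0.0534 and 0.111 when any CTRL RS library, CTRL Spc replicate 1 or 3, cKO RS replicate 1 or 3 or cKO Spc replicate 2 was left out. Hbb-bs stayed called without any one library, but with an adjusted p of up to 0.0499 in the edgeR quasi-likelihood test, and was at 2.42 without cKO RS replicate 1. Hbb-bt was called only without CTRL Spc replicate 2, at 2.28 with an adjusted p of 0.0324. These comparisons share their libraries, so they are not independent of each other.

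The proportions of the globins also differed between libraries. In CTRL RS, Hbb-bt counts were 13.9%, 14.7% and 15% of Hbb-bs counts, and Hba counts were 0.836, 0.916 and 0.906 times Hbb-bs counts. In cKO RS, Hbb-bt was 6.16%, 15.5% and 7.48% of Hbb-bs, and Hba was 0.655, 0.934 and 0.745 times Hbb-bs. Replicate 2, the cKO library with the least globin, thus had the proportions of the controls, and the libraries with more globin had relatively more Hbb-bs. Since Hbb-bs and Hbb-bt share most of their coding stretches of read length, their proportions also rest on how reads were assigned. The part of the mixed strain in these proportions was not tested. Summed over the 3 distinct globin rows, globin counts divided by the library total alone, with no TMM, came to 9.87, 11 and 10.8 CPM in CTRL RS, 193, 48.1 and 113 in cKO RS and 0.374 to 1.42 in the Spc libraries of both genotypes.

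Globin reads per Alas2 read told the fractions apart even more widely. The ratio was 0.139, 0.0192 and 0.0539 in CTRL Spc, 2.08, 0.354 and 0.932 in cKO Spc, 5.6, 4.18 and 4.67 in CTRL RS and 17.6, 20.2 and 14.7 in cKO RS. It was lowest in CTRL Spc, the fraction with the most Alas2, and did not overlap between any of the 4 groups. In the deposited transcript counts, which leave out reads with several positions, Hba-a1 and Hba-a2 had different counts, and Hba-a1 took 74.4%, 74.6% and 78.5% of their sum in cKO RS and 92.3%, 75.8% and 78.2% in CTRL RS.

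**Figure D3:**
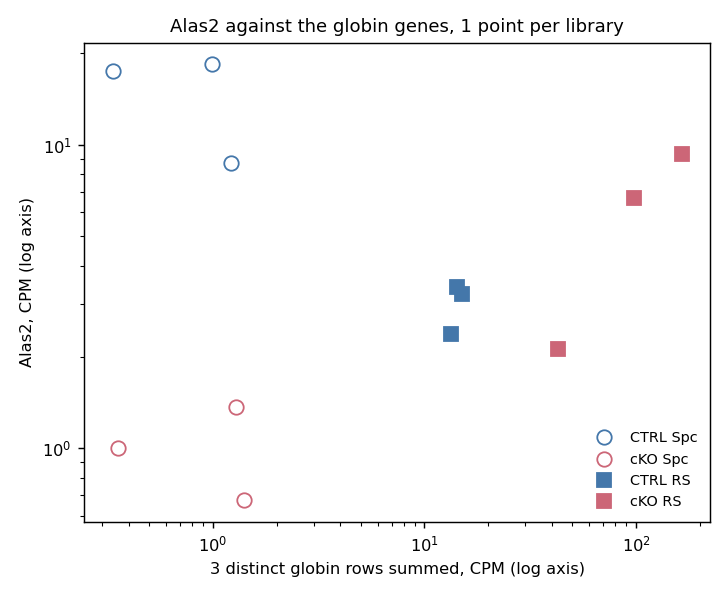
Each point is 1 of the 12 Spc and RS libraries, with the summed CPM of the 3 distinct globin rows on the horizontal log axis and the CPM of Alas2 on the vertical log axis. CTRL Spc libraries stand at the upper left, with Alas2 between 8.73 and 18.4 CPM, and the cKO RS libraries at the right, in order of both quantities.

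Over the 12 libraries the summed globins and Alas2 had a Pearson correlation of 0.07 on the log2 scale, while within cKO RS both were highest in replicate 1 and lowest in replicate 2. The genes whose profiles were most like the summed globins, among 14660 genes with at least 50 counts per library on average, were Prps1 (r = 0.96), Avpi1 (0.956), Wac (0.954), Brwd3 (0.953), Rfc1 (0.95) and Hsf5 (0.948). They spanned a narrower range than the globins, as in Prps1 with 7.04 ± 0.494 CPM in CTRL Spc, 14.2 ± 1.52 in CTRL RS and 19.9 ± 1.22 in cKO RS. The genes most like Alas2 were 1700019B21Rik (0.954), Epas1 (0.947), Ptpn7 (0.936), Hspb1 (0.921), Jade1 (0.913) and 3110035E14Rik (0.912), none of them a globin. Epas1 was at 17.5 ± 7.03 CPM in CTRL Spc and 3.84 ± 0.954 CPM in cKO Spc. The points share stage, genotype and library, and the values are descriptions.

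Other genes of the red cell program did not follow the globins as a group. The embryonic beta globin Hbb-y had at most 11 counts in any library, the embryonic Hba-x and Hbb-bh1 at most 1, and Hbb-bh2, Hbq1a and Hbq1b were at 0 in all 19 libraries. Genes that define the red cell membrane were also scarce in Spc and RS. Band 3 (Slc4a1) had 0, 1 and 4 counts in CTRL RS and 9, 10 and 14 in cKO RS, and Rhag had at most 5 counts.

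In RS, cKO against CTRL, 2 of 11 heme synthesis and carrier genes were higher, 1 was lower and 8 were not called, with a median of 0.58 against 0.12 for all features. The higher genes were Fech, the last enzyme of heme synthesis, at 1.64, and Cpox, an earlier enzyme of the pathway, at 1.51, while the mitochondrial iron carrier Slc25a37 fell by 2.45. Alas1, the housekeeping form of ALAS2, was at 0.87 and below the fold threshold. Of 7 membrane and skeleton genes tested out of 14 listed, Aqp1 (2.2) and Gypc (1.82) were higher and 2 were lower, among them Ank1 (-2.18). Among the 10 other red cell genes tested, 2 were higher, among them Ucp2 (2.52), and carbonic anhydrase 2, Car2 (-5.25), and Hemgn (-2.84) were lower.

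Of the 8 erythroid transcription factors, Lmo2 (2.06) and Ldb1 (1.64) were higher, Nfe2 (-4.88) and Gfi1b (-2.21) were lower and 4 were not called. Gata1, which also acts in Sertoli cells, had 96, 336 and 242 counts in CTRL Spc, 45, 90 and 104 in cKO Spc, 59, 64 and 72 in CTRL RS and 172, 112 and 225 in cKO RS. Klf1, the factor of adult beta globin, had 13, 231 and 220 counts in CTRL RS and 264, 28 and 12 in cKO RS, high in some libraries and low in others of both genotypes. No erythroid list moved one way in RS, and all calls named in these lists had the same sign with DESeq2 and with total-count scaling. The number higher went from 2 to 5 of 10 for the other red cell genes, from 2 to 3 of 11 for the heme genes and from 2 to 3 of 7 for the membrane genes with total-count scaling, and was 1 of 11 for the heme genes with DESeq2.

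Markers of other cells moved together with the globins in RS. Of 14 macrophage genes, 12 were higher in cKO RS, 1 was lower and 1 was not called, with a median of 3.6. C1qc (4.2), Lyz2 (3.93), C1qa (3.89) and Laptm5 (3.87) were the largest, and Aif1 fell by 2.65. The summed macrophage level ran from 477 to 602 CPM in CTRL RS, where Aif1 alone was at 512 ± 59.8 CPM, and from 356 to 500 CPM in cKO RS, where Aif1 was at 80.4 ± 17.9 CPM (SD, n = 3). Lyz2, the macrophage lysozyme, had 152, 100 and 257 counts in CTRL RS and 4318, 2587 and 4845 in cKO RS.

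All 7 Leydig cell genes tested were higher in cKO RS, with a median of 4.17, led by Insl3 (4.41), Hsd3b1 (4.29), Cyp11a1 (4.17) and Hsd3b6 (4.17). The summed Leydig level was 10.7 to 11.4 CPM in CTRL RS and 34.1 to 341 CPM in cKO RS, with 124 to 415 CPM in CTRL Spc and 584 to 1200 CPM in cKO Spc. Unlike the globins, it was therefore higher in Spc than in RS in both genotypes. Sertoli genes were higher for 4 of 10, namely Trf (3.19), Amh (1.85), Rhox5 (1.76) and Gata4 (1.59), or 9 of 10 with total-count scaling. Their summed level was 315 to 858 CPM in CTRL Spc and 187 to 268 CPM in cKO Spc, lower in the cKO as Alas2 was, and 61.6 to 75.8 CPM in CTRL RS and 97.9 to 264 CPM in cKO RS.

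Of 12 genes of other blood cells, 5 could be tested and 3 were higher in cKO RS, Pf4 of platelets (3.68), Ptprc of white cells (2.98) and Cd3e of T cells (2.75). Their summed level was 5.68 to 6.4 CPM in CTRL RS and 18.8 to 31 CPM in cKO RS. The neutrophil gene S100a8 had 0, 0 and 1 counts in CTRL RS and 10, 0 and 7 in cKO RS. Endothelial and peritubular myoid genes did not move as groups, with Eng (2.03) higher and Vwf (-2.63) lower of 7 endothelial genes and Des (2.48) higher of 5 myoid genes. The globins were highest in cKO RS replicate 1, whereas macrophage marker Lyz2 and Insl3 were highest in replicate 3, and all were lowest in replicate 2. The part of these cells in the globin and Alas2 differences was not tested.

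**Figure D4:**
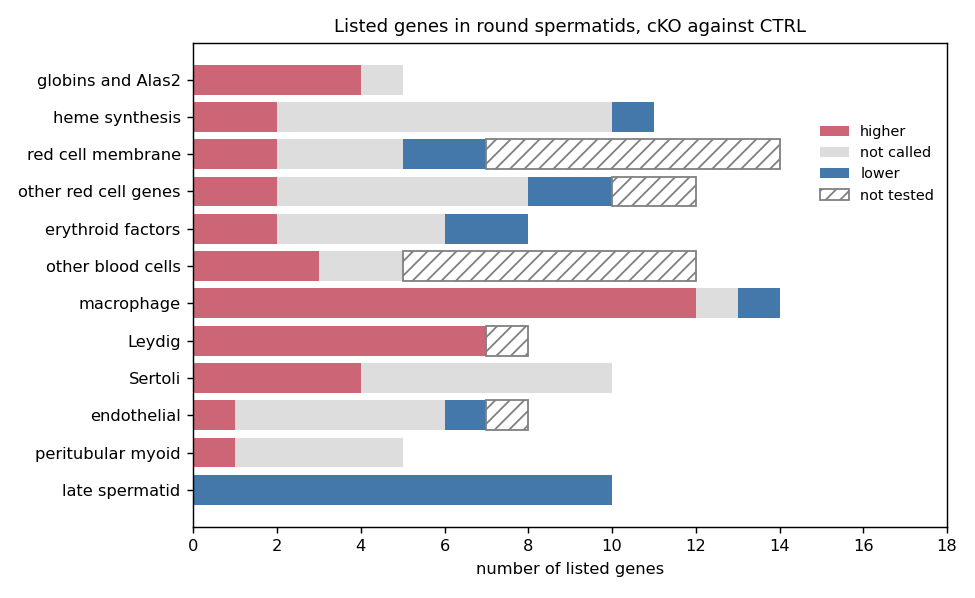
Bars count the listed genes of each group that were called higher, called lower, not called or not tested in cKO against CTRL round spermatids. Macrophage (12 of 14), Leydig (7 of 7 tested) and globin genes were mostly higher, the late spermatid genes were lower in 10 of 10, and the red cell lists were mixed.

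Late spermatid genes, which mark the most advanced germ cells of the fraction, were lower for 10 of 10 in cKO RS, led by Prm2 (-5.35), Prm1 (-5.05), Tnp1 (-4.72) and Tnp2 (-4.46). Their summed level was 29200 to 38700 CPM in CTRL RS and 1940 to 1990 CPM in cKO RS. Of the round spermatid genes, 5 of 10 were lower, or 2 with total-count scaling and 6 with DESeq2, and the spermatocyte genes lay between -0.64 and 1.12, below the fold threshold, also with DESeq2, while 3 were called higher with total-count scaling. The part of this shift in germ cell RNA in the globin levels was not tested.

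In isolated CBs the members were near the limit of detection. Hba had 2, 2 and 23 counts in the cKO libraries MKO2, MKO3 and MKO4 and 7, 8, 7 and 19 in the CTRL libraries MCTRL1, MVHCTRL2, MVHCTRL3 and MCTRL5. Hbb-bs had 5, 8 and 33 against 13, 5, 12 and 27, Hbb-bt had 0, 5 and 9 against 0, 4, 0 and 2, and Alas2 had 4, 2 and 7 against 8, 5, 7 and 13. The groups overlapped for each member, and a count of 0 allows up to 0.546 CPM in MKO2, 0.251 in MCTRL1 and 0.471 in MVHCTRL3. Alas2 was at 0.731 ± 0.107 CPM (n = 3) in cKO and 0.73 ± 0.256 CPM (n = 4) in CTRL.

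Only Hbb-bs had enough counts in CBs to test, at a log2 difference of 1.1 (95% interval 0 to 2.2, adjusted p = 0.108), and 0 members were called, against 11.3% of all features in either direction. Its unadjusted p was 0.0498 in the edgeR quasi-likelihood test, where 6501 of 14051 features were under 0.05. DESeq2 called 0 members as well. Without MKO2 it was 1.52 with an adjusted p of 0.018, a call, and without MKO4 it was 0.43. The globin level of CB libraries therefore rests on single libraries.

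Small RNA gave a second readout of red cells in libraries other than those in which the members were counted. The study's methods say that the small RNA came from the samples used for long RNA, yet there are more small RNA libraries of Spc than long RNA libraries, while the deposited design calls all of them biological replicates. The columns name no shared replicate number, and libraries are called by their column labels S15 to S30. Expression of miR-451a, a miRNA matured without Dicer and abundant in red cells, was 138, 2 and 51 counts in cKO RS libraries S15, S16 and S17 and 4, 4 and 11 counts in CTRL RS. In Spc it was 2, 168, 2, 2 and 0 counts in cKO libraries S21 to S25 and 2, 3, 1, 0 and 1 counts in CTRL.

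The 2 arms of miR-144, the neighbour of miR-451a, showed the same libraries. The 3p arm had 127, 0 and 49 counts in cKO RS and 1, 2 and 7 in CTRL RS, and 119 counts in S22 against at most 4 in any other Spc library. The 5p arm had 87, 0 and 48 counts in cKO RS, 2, 1 and 4 in CTRL RS and 66 in S22. The rows of miR-486a-5p and miR-486b-5p were equal, at 222, 2 and 240 counts in cKO RS, 5, 15 and 26 in CTRL RS and 336 in S22 against at most 9 in any other Spc library. Thus, by the column labels, 2 of 3 cKO RS libraries and 1 of 5 cKO Spc libraries had high erythroid miRNAs. S16 was no higher than the controls, and the genotypes overlapped in both cell types. For the germ cell miRNA miR-449a-5p, S16 (52600 CPM) lay within the range of the cKO Spc libraries other than S22, and S22 (26700 CPM) lay near S15 and S17. Whether these labels were exchanged was not tested.

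**Figure D5:**
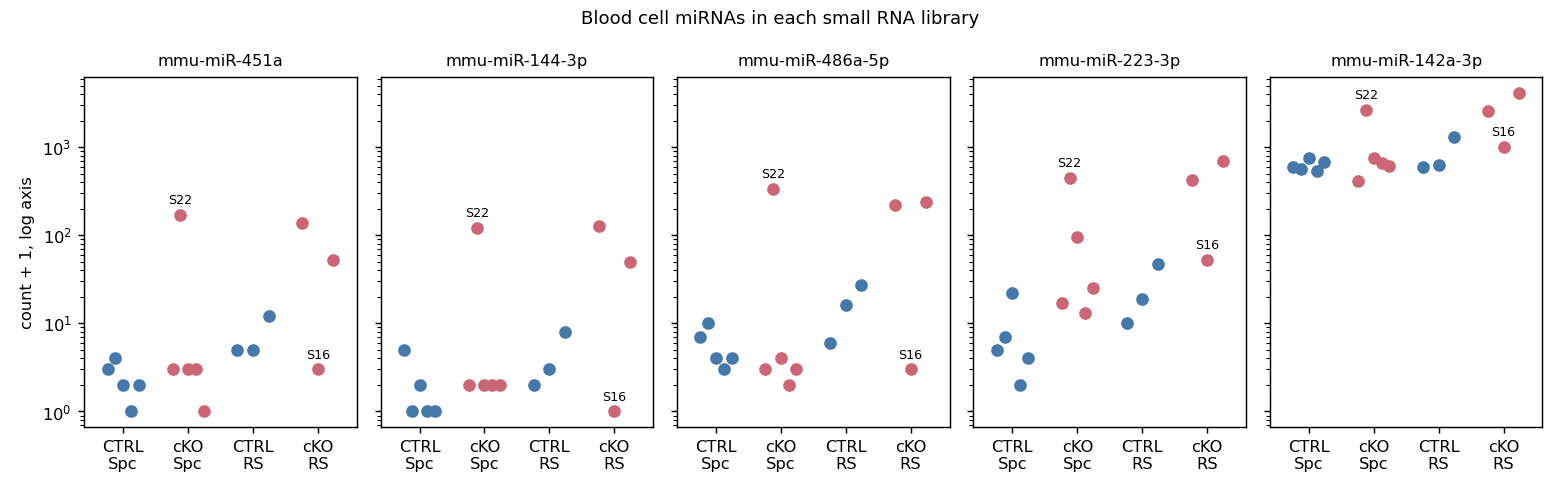
Each point is 1 small RNA library, on a log axis of counts plus 1, for red cell miRNAs (miR-451a, miR-144-3p, miR-486a-5p) and for miR-223-3p and miR-142a-3p of other blood cells. S22 stands apart from the other cKO Spc libraries, and S16 lies with the CTRL RS libraries for the red cell miRNAs.

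None of the red cell miRNAs was called with an adjusted p of at most 0.05, and the depth limits this readout. In RS, 3 of 5 could be tested and 0 were higher in the cKO, against 25.0% of miRNAs. All 3 had an unadjusted p under 0.05 in the edgeR quasi-likelihood test, as had 135 of 256 miRNAs, and the miR-486 rows were equal. DESeq2 called all 3, and its share over all miRNAs is not reported here. The log2 difference was 2.55 for miR-451a (SE 1, adjusted p = 0.0666) and 2.52 for miR-486a-5p and miR-486b-5p (SE 1.04, adjusted p = 0.0797). Without S16 all 3 were called, with miR-451a at 3.18 and an adjusted p of 0.000294. In Spc 0 of 5 had enough counts to test, against 27.4% of miRNAs higher in the cKO, as S22 alone held high counts.

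Between the stages, 0 red cell miRNAs could be tested in CTRL, against 41.4% of miRNAs higher in RS. In cKO 5 were tested and 0 were called, against 0% of all miRNAs, and 0 of the 5 had an unadjusted p under 0.05 (7 of 285 miRNAs did, and DESeq2 called 0). The log2 differences there ran from 0.8 for miR-451a to 1.49 for miR-144-5p, with intervals of -2.35 to 3.96 and -1.46 to 4.43 that span no change and large changes alike.

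Of the miRNAs of other blood cells, miR-223-3p had 426, 52 and 699 counts in cKO RS and 9, 18 and 46 in CTRL RS, without overlap. It was higher by 3.26 (SE 0.71, adjusted p = 0.0097), or 3.87 without S16. In Spc it had 16, 452, 94, 12 and 24 counts in cKO and 4, 6, 21, 1 and 3 in CTRL, and was higher by 4.27 (SE 0.95, adjusted p = 0.00275), by 3.01 without S22 and by 5.07 without S28. So miR-223-3p was higher in the cKO of both cell types, whether or not S22 was counted, while the red cell miRNAs were high in S15, S17 and S22 and not in the other libraries. The lymphocyte miRNA miR-150-5p, named after its values were seen, was high in the same 3 libraries, with 64, 1 and 208 counts in S15, S16 and S17 and 186 counts in S22.

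The leukocyte miRNA miR-142a-3p was higher by 0.84 in cKO RS (SE 0.29, adjusted p = 0.0478) and by 1.03 in cKO Spc (SE 0.31, adjusted p = 0.0145). The endothelial miR-126a-3p was higher by 1.03 in cKO RS (SE 0.34, adjusted p = 0.0398) and at 0.9 in cKO Spc (SE 0.41, adjusted p = 0.086). For each, the RS call was lost without 5 of the 6 libraries in turn, with adjusted p of up to 0.131 for miR-142a-3p and 0.151 for miR-126a-3p. The part of blood and vessel cells in these values was not tested.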

How the data were processed

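The deposited gene tables hold raw counts per gene and repeat element, which the authors made with cutadapt, STAR and TEtranscripts in reverse stranded mode on GRCm38. How reads with several positions were shared between genes is not given in the sources used here. The deposited transcript tables hold estimated counts per Ensembl transcript from featureCounts, with a pair that fits several transcripts split equally, and were rounded after summing per gene. The miRNA counts were made by the authors with SPORTS1.1 and miRBase, and a missing value was taken as 0. Their totals count miRNA reads only.

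Counts were tested with edgeR 4.0.16 (quasi-likelihood, TMM, R 4.3.3) on features with at least 10 counts in at least 3 libraries, each comparison on its own libraries, with Benjamini-Hochberg adjustment over all features. The test was checked on simulated data, where unchanged features made up a larger share of the hits than the adjusted p threshold, slightly in RS and more in Spc and in small RNA. DESeq2 1.42.0, scaling by total counts, no filter, transcript counts, a replicate block and leaving out each library were alternatives. Replicates differed beyond sampling noise. The sources differ on how many mice each Spc or RS isolation used.

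The members and lists were chosen with earlier results of these data known. Of each list, the genes called in RS were named, at most the 4 largest, with the 6 genes most like the globins and Alas2. Alas1, Gata1, Klf1, Slc4a1, Rhag, S100a8, miR-34c-5p and miR-449a-5p fall outside that rule and were named after their values were seen. The piRNA, repeat and tRNA tables were not used. Some genes of the red cell lists are not reported here by name.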

Additional observations from a re-analysis of the deposited data

Results flagged for a closer look

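In the spermatocyte small RNA of the cKO, library S22 lay far from the other 4 libraries of its group. On the CPM scale it held 662 for miR-451a (others 0 to 16.2), 469 for miR-144-3p (5.72 to 8.08), 260 for miR-144-5p (0 to 13.8) and 1320 for miR-486a-5p (8.08 to 17.2). It also stood apart for miR-223-3p of neutrophils and macrophages, at 1780 (96.9 to 538), and for the endothelial miR-126a-3p, at 1260 (421 to 584). For the germ cell miRNA miR-449a-5p, S22 was at 26700 (others 47400 to 61000), near cKO RS libraries S15 (27400) and S17 (26200), while S16 was at 52600. For the germ cell miRNA miR-34c-5p, S22 was at 147000 (others 185000 to 265000), and S15, S16 and S17 were at 149000, 156000 and 141000. Whether the labels of S16 and S22 were exchanged was not tested. In CTRL Spc, library S26 was flagged for miR-144-3p at 21.2 CPM (others 0 to 3.43), which rests on 4 counts. These are 7 flags among 18 groups examined, where chance gives about 1 in 20, and the miRNAs of S22 share 1 library.

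The genotype effect differed between RS and Spc in the interaction test, by 2.14 for Hba-a1, 3.02 for Hbb-bs and 4.87 for Alas2 on the log2 scale. For the globins the difference came with a higher level in cKO RS, and for Alas2 with a lower level in cKO Spc.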

How the results depend on the processing

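Of the counts of members called, 216 were within 1.5 times the value reported and 16 were not. Of the fold changes, 442 kept direction and side of the threshold, 17 passed it only under an alternative, 28 lost it and 3 changed sign. The sign changes were all Hbb-bs in Spc, at 0.12 with transcript counts and 0.31 without CTRL Spc replicate 1 or cKO Spc replicate 2, within a range of -0.52 to 0.31 when a library was left out. In CBs 1 member was higher with no count filter (Hbb-bt, 2.51, adjusted p = 0.0484), and leaving out a library gave 0 to 1. The interaction called 2 to 5 members higher when a library was left out, and Hba-a2 with transcript counts was at 2.34 (adjusted p = 0.155). Red cell miRNAs higher in cKO RS numbered 3 with DESeq2, 3 with total-count scaling, 5 with no count filter and 0 to 3 when a library was left out. With no count filter 5 were higher in cKO Spc and 4 in CTRL RS against Spc. The cause of these changes was not tested, except that no filter lets low-count features into the test.

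The replicate numbers did not pair the samples throughout. In their deviations from the group means, same-numbered libraries correlated between -0.24 and 0.6 over 14667 genes. Between Spc and RS of the same number, the values for numbers 1 to 3 were -0.18, -0.16 and -0.24 in CTRL. In cKO they were -0.02, 0.6 and 0.34, where the highest values with another number were 0.23, -0.22 and 0.23. Whether cKO Spc and RS libraries shared mice was not tested. With the replicate number as a block, Alas2 in RS was 0.84 (adjusted p = 0.184), the Hba-a1 interaction 2.13 (adjusted p = 0.00648), and no call of a member changed. No paired analysis was possible for CBs and small RNA because their columns carry no shared replicate number.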
